A study of Arabidopsis thaliana with 6 samples.

Results

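The SWEET genes studied here are those of clade III (SWEET9 to SWEET15) and clade IV (SWEET16 and SWEET17) of the Arabidopsis thaliana SWEET family of sugar transporters. Members were the probe sets with exactly 1 gene in the platform annotation and a symbol from SWEET9 to SWEET17. They numbered 7 of the 13350 genes with a probe set of their own, in a table of 22810 probe sets: SWEET9, SWEET10, SWEET11, SWEET13 and SWEET14 of clade III, and SWEET16 and SWEET17 of clade IV. No probe set was listed for SWEET12, the closest relative of SWEET11, and SWEET15 was listed only under its older symbol SAG29, so its values are given apart. All 7 members kept the same symbol in the newer gene table.

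SWEET proteins are membrane uniporters that let sugars pass down their concentration gradient. Clade III members carry mainly sucrose across the plasma membrane, and SWEET11 and SWEET12 release sucrose from leaf phloem parenchyma so that the sucrose-proton symporter SUC2 can load it into the phloem. Clade IV members sit in the vacuolar membrane and pass fructose and other sugars in or out of the vacuole. PHO1 exports phosphate into the root xylem, so the shoots of pho1 plants are short of phosphate, a state in which leaves are known to build up sugar and starch.

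Total RNA of rosette leaves was hybridised to 6 ATH1 arrays, 3 from wild-type plants of the accession Col-2 and 3 from the pho1 mutant, an EMS mutant in the Col-2 background. Plants of both groups were at growth stage 3.90 and grew on 0.8% agar with MS salts and 1% sucrose, so each group had external sugar, at 24 °C, 80% humidity and a photoperiod of 16 h. The values are MAS5 signals, a linear brightness per probe set, and median signals were 41.4 to 46.6 per array. The labels do not say whether replicates came from separate plants, so the tests measure the spread of these arrays alone, and that spread can be technical. The number of arrays limits the precision.

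Some facts of the arrays bear on every value below. The median signal of 12 spike-in control probe sets was 4.00 and 2.15 on both replicate 1 arrays and 52.4 to 92.8 on the other 4, so values for replicates 2 and 3 on their own are given too. The actin 3′ to 5′ ratio was 2.19 in wild type replicate 1, 3.01 in pho1 replicate 1 and 1.51 to 1.89 elsewhere. RCA (Rubisco activase), the only listed marker of leaf mesophyll, had signals of 3025 to 5097 over the 6 arrays. No phloem marker of 6 and no flower or nectary marker of 4 had a listed probe set, and PYK10, a gene known for its root expression and the only one of 4 root markers listed, had signals of 173 to 398 in wild type and 278 to 571 in pho1 (limma adjusted p = 0.35). FMA, 1 of 4 guard cell markers listed, had signals of 54.0 to 69.3 in wild type and 66.9 to 91.7 in pho1 (limma adjusted p = 0.53). TRY, 1 of 3 trichome markers listed, had 26.5 to 38.4 in wild type and 12.0 to 25.7 in pho1 (log2 difference -0.54, limma adjusted p = 0.35). Its groups did not overlap, as held for 19.8% of all tested probe sets in either direction. The part of these markers in the SWEET values was not tested. In whole leaves, fewer cells of a type and less RNA per cell cannot be told apart.

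SWEET11 had a higher signal on every pho1 array than on any wild-type array, and was the sole member of which this held. Its wild-type signals were 518, 571 and 601 in replicates 1, 2 and 3, and its pho1 signals were 1017, 853 and 984. The lowest pho1 array lay well above the highest wild-type array, and the groups did not overlap. Wild type had a mean of 564 ± 41.8 and pho1 one of 951 ± 86.4 (SD, n = 3 each), a ratio of 1.69. Such separation in either direction was found in 19.8% of the 15922 tested probe sets, and with pho1 above wild type in 10.8%.

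**Figure D1:**
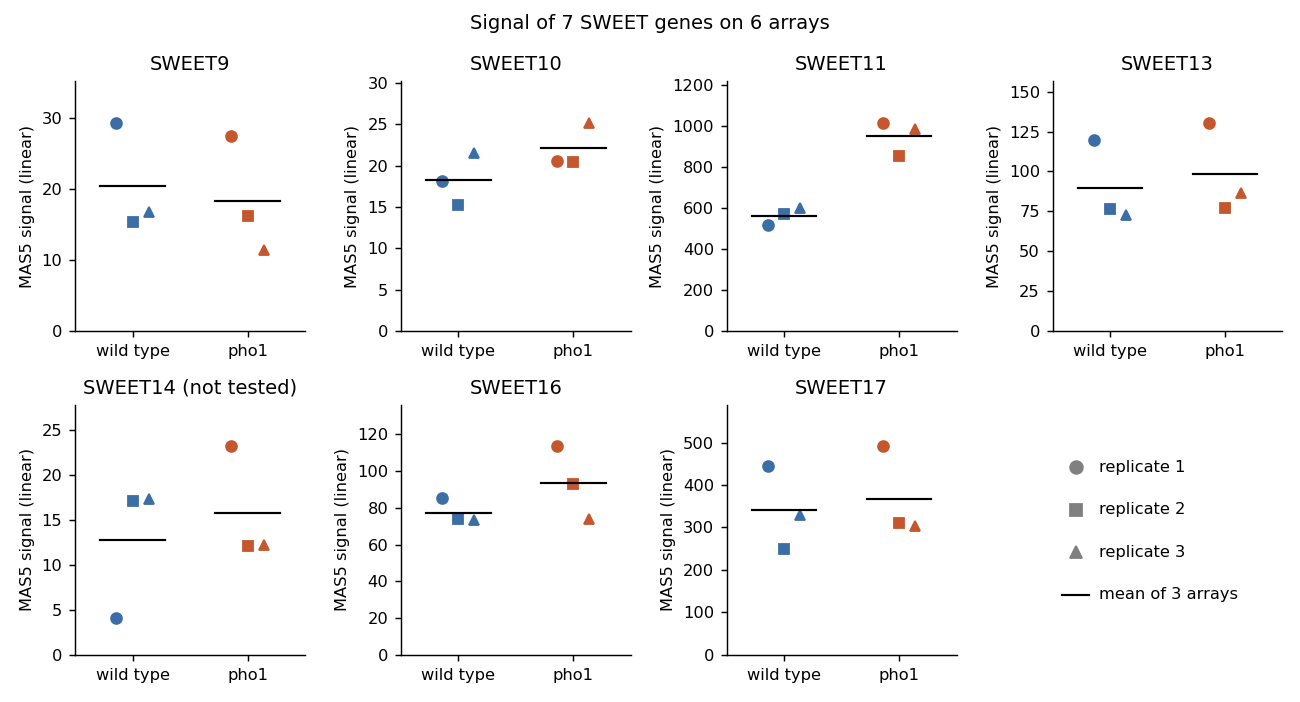
Signal (linear, y axis from 0) of the 7 members on each array, by group (x axis); circles, squares and triangles are replicates 1, 2 and 3, and bars are means of 3 arrays. SWEET11 is the member with no overlap, from 518 to 601 in wild type and 853 to 1017 in pho1.

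In the fit across all tested probe sets, the log2 difference of SWEET11, pho1 minus wild type, was 0.74 ± 0.18 (SE), with a 95% interval of 0.34 to 1.15. It missed the threshold of 0.05 (limma adjusted p = 0.070, unadjusted 0.0027), where it stood at place 617 by p. By replicate pair the difference was 0.96, 0.57 and 0.70. Over all tested probe sets same-numbered arrays deviated together (r = 0.42, 0.217 and 0.386). Wild type replicate 3 and pho1 replicate 2 also did (r = 0.33), so the pairing of replicates 2 and 3 by number is not settled. The replicate 1 arrays of SWEET11 did not deviate together, at -0.17 in wild type and 0.15 in pho1 from the mean of replicates 2 and 3. With the replicate number as a block SWEET11 passed (limma adjusted p = 0.031), as did 6.64% of tested probe sets. It also passed in replicates 2 and 3 on their own, at 0.64 ± 0.14 (SE; limma adjusted p = 0.019), where 18.7% of tested probe sets passed. It further passed after quantile normalization (0.039), with array weights (0.0070) and with a block for the spike-in sets (0.018), where 2.99%, 23.8% and 8.28% of tested probe sets passed. The exact two-sided permutation test over the arrays gave p = 0.1, the smallest that 3 against 3 allow. A difference at least as large upward was found in 5.86% of tested probe sets.

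**Figure D2:**
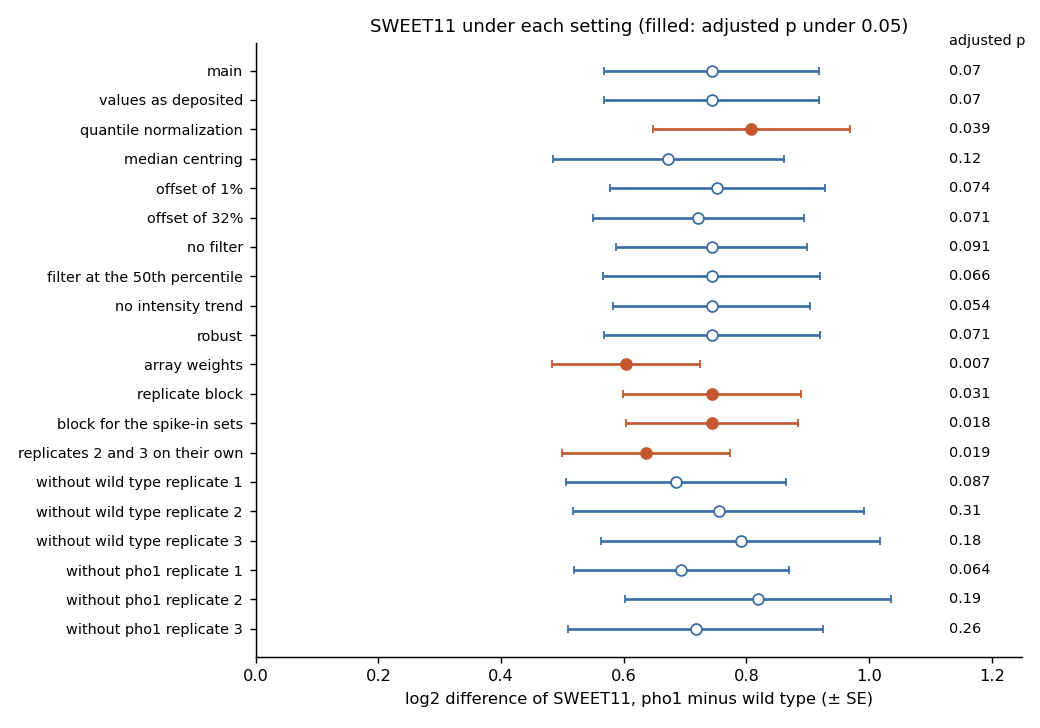
Log2 difference of SWEET11 between pho1 and wild type (x axis, point with SE) in the main analysis and under 19 alternative settings (y axis), with limma adjusted p at the right. Filled points passed 0.05; the estimates lie between 0.60 and 0.82, and 5 of the alternatives passed.

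None of the other members passed the test in any setting run. Of the 7 members, 6 were bright enough to be tested and 0 were called by limma at an adjusted p under 0.05, where 2.96% of the 15922 tested probe sets were. At an unadjusted p under 0.05 the count was 1 of 6, SWEET11, beside 15.1% of all tested probe sets. With the replicate block it was 1 of 6 by adjusted p, beside 6.64% of all tested probe sets. The median log2 difference of the 6 was 0.15, beside -0.02 over all tested probe sets. The estimate was above 0 in 5 of the 6, the exception being SWEET9, while 53.0% of all tested probe sets had one below 0. It was also above 0 in 5 of the 7 tested SWEETs of clades I and II. Among the members, 4 (SWEET10, SWEET11, SWEET13 and SWEET16) were higher in pho1 in all 3 pairs, as were 20.8% of tested probe sets. With quantile normalization or median centring this held for 2 members, SWEET10 and SWEET11. In replicates 2 and 3 alone the differences of the others were -0.13 for SWEET9, 0.21 for SWEET10, 0.12 for SWEET13, 0.16 for SWEET16 and 0.09 for SWEET17, with limma adjusted p of 0.52 to 0.74.

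Among the other clade III genes, SWEET13 and SWEET10 lie next to each other on chromosome 5, with no gene between them in the RefSeq table. SWEET13, a plasma membrane sucrose transporter, had signals of 120, 76.5 and 72.9 in wild type and 130.5, 77.4 and 86.6 in pho1. Its groups overlapped, with the replicate 1 array highest in each, and the log2 difference was 0.12 (95% interval -0.45 to 0.68; limma adjusted p = 0.89). SWEET10, known for its induction in the shoot apex at the floral transition, was dim, at 18.1, 15.3 and 21.5 in wild type and 20.6, 20.5 and 25.2 in pho1. One wild-type array reached into the pho1 range, and the log2 difference was 0.18 (95% interval -0.23 to 0.60; limma adjusted p = 0.72).

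SWEET9 is the sucrose exporter of nectaries, which belong to the flower. Its signals were 29.3, 15.3 and 16.7 in wild type and 27.5, 16.2 and 11.4 in pho1, with a log2 difference of -0.11 (95% interval -0.73 to 0.51; limma adjusted p = 0.91). These values lay near the limit of testing, a signal of 17.4, and no detection calls were used, so they do not show expression. SWEET14, which with SWEET13 is known for a role in anthers, fell under that limit and was not tested. Its signals were 4.1, 17.1 and 17.3 in wild type and 23.2, 12.1 and 12.2 in pho1, so the sign of its difference turned between pair 1 (1.24) and pairs 2 and 3 (-0.29 and -0.30). SWEET15 (SAG29), known from senescing leaves and seeds, was also under the limit, with 100.4, 6.0 and 13.7 in wild type and 5.1, 3.9 and 26.6 in pho1. A single wild-type array carried its high mean.

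The vacuolar members showed smaller estimates than SWEET11. SWEET16, which passes glucose, fructose and sucrose across the vacuolar membrane, had signals of 85.1, 73.6 and 73.1 in wild type and 113, 93.0 and 74.0 in pho1. Its pho1 arrays of replicates 1 and 2 were above all wild-type arrays and that of replicate 3 lay among them. The log2 difference was 0.23 ± 0.18 (SE; 95% interval -0.19 to 0.65; limma adjusted p = 0.64), with 0.37, 0.30 and 0.02 by pair. It was 0.095 without pho1 replicate 1 and 0.37 without pho1 replicate 3. SWEET17, the fructose carrier of the vacuole, had signals of 444, 250.5 and 328 in wild type and 491, 309.7 and 303 in pho1. Its groups overlapped widely, and the log2 difference was 0.11 ± 0.27 (SE; 95% interval -0.51 to 0.73; limma adjusted p = 0.91). The intervals of SWEET13, SWEET16 and SWEET17 reach up to 0.68, 0.65 and 0.73, so these arrays leave room for rises just short of the SWEET11 estimate.

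**Figure D3:**
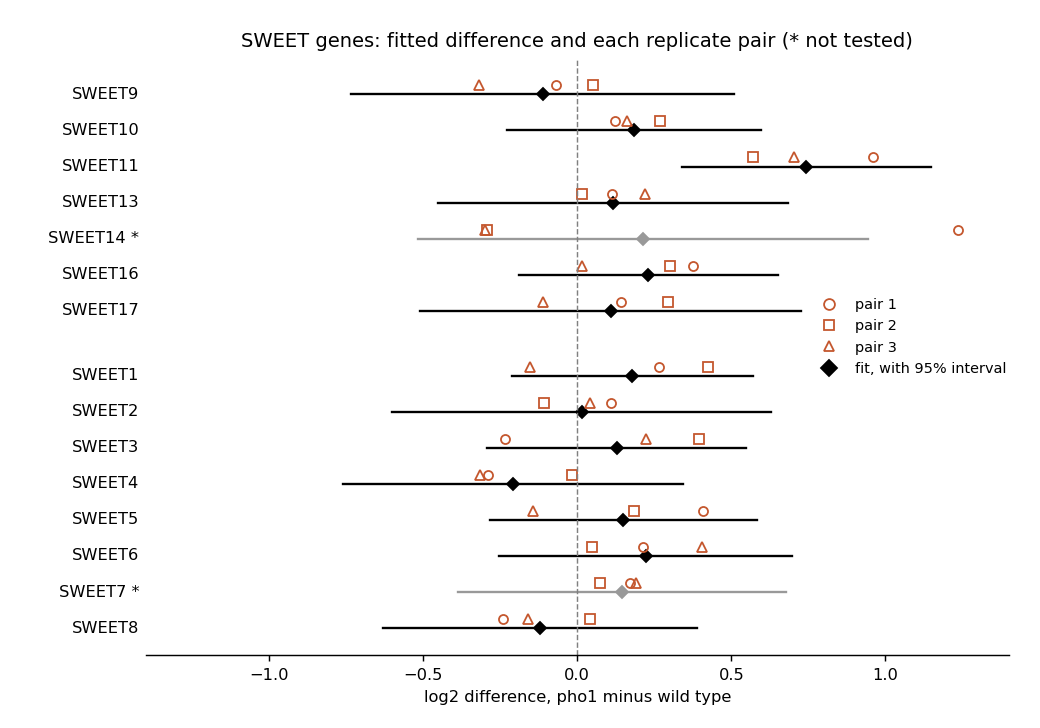
Log2 difference, pho1 minus wild type (x axis), of the 7 members (upper block) and SWEET1 to SWEET8 (lower block). Diamonds with lines are fitted values with 95% intervals, open symbols are the 3 replicate pairs, and grey marks genes too dim to be tested; the interval of SWEET11, 0.34 to 1.15, is the one that leaves out 0.

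SWEET11 was also set against each other tested member by the ratio of both signals within each array. All 5 of these ratios were higher in pho1 in all 3 replicate pairs, as was the ratio of SWEET11 to 85.1% of the other 15921 tested probe sets. Against SWEET16 the mean log2 ratio went from 2.72 in wild-type arrays to 3.23 in pho1 arrays, a difference of 0.51, with 0.58, 0.27 and 0.69 by pair. Against SWEET10 and SWEET9 the difference was 0.56 and 0.86, and against SWEET13 and SWEET17 it was 0.63 each. By pair it was 0.84, 0.56 and 0.48 against SWEET13, and 0.82, 0.28 and 0.81 against SWEET17. Of all 15 pairs of tested members, 3 had ratios that did not overlap between the groups, those of SWEET11 to SWEET9, SWEET10 and SWEET16. That is 3 of the 5 ratios of SWEET11, while its ratio to 76.6% of the other tested probe sets did not overlap, so the count sets no member apart. The exact two-sided permutation p was 0.1 for these 3 ratios, 0.375 after Benjamini-Hochberg adjustment over the 15 pairs, and 0.2 against SWEET13 and SWEET17. Since 0.1 is the smallest value possible with 3 against 3 arrays, no pair could have passed the threshold, and the ratios are descriptions.

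Some members also split by replicate. SWEET9, SWEET13 and SWEET17 were highest on both replicate 1 arrays, above all 4 others, as were 16.4% of tested probe sets; with median centring SWEET16 joined them. On the log2 scale SWEET13 was 0.62 above replicates 2 and 3 in wild type and 0.61 above in pho1. SWEET17 was 0.61 and 0.66 above, and SWEET9 was 0.60 and 0.66 above. These shifts are several times their genotype differences of 0.12, 0.11 and -0.11. SWEET11 did not share them, at -0.17 in wild type and 0.15 in pho1, and neither did SWEET10, at -0.01 and -0.10. SWEET16 was 0.19 above in wild type and 0.41 above in pho1. The untested SWEET14 was at -0.95 in wild type and 0.58 in pho1. Over the 6 arrays SWEET13 and SWEET17 had a Pearson r of 0.906, SWEET9 and SWEET17 of 0.876, and SWEET11 and SWEET17 of 0.169. These values are descriptions, since the arrays share their scaling and the replicate 1 shift.

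**Figure D4:**
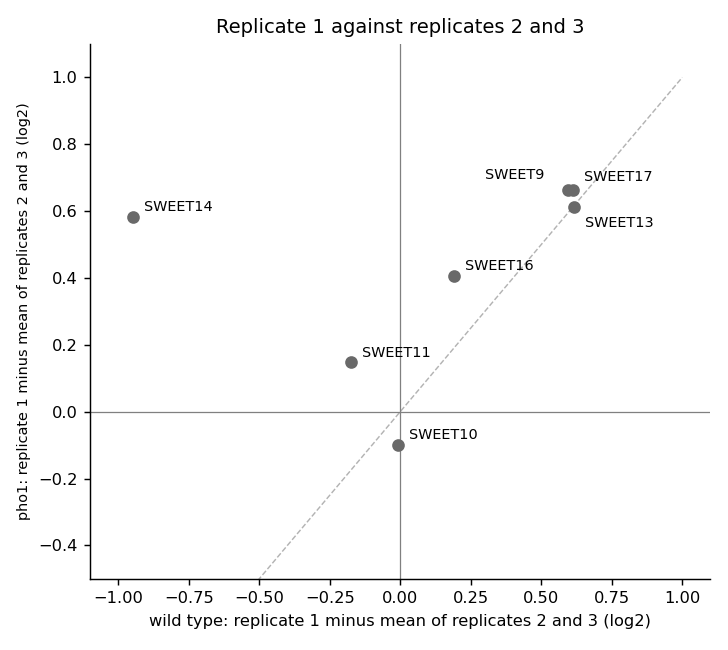
Replicate 1 minus the mean of replicates 2 and 3, in log2 units, in wild type (x axis) and pho1 (y axis) for the 7 members; the dashed line marks equal shifts. SWEET9, SWEET13 and SWEET17 lie together near 0.6 on both axes, and SWEET10 and SWEET11 lie near 0. SWEET16 (0.19 and 0.41) lies between them, and SWEET14 (-0.95 and 0.58) lies apart.

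The genes with patterns most like those of the members were taken from 8845 other tested probe sets with 1 gene, by Pearson r of log2 values over the 6 arrays. For SWEET11 they were AT2G17280 (r = 0.997), AT5G17340 (r = 0.996) and AT2G39725 (r = 0.990), and 71 probe sets had an r of at least 0.95. AT2G17280 rose by 1.60 on the log2 scale (limma adjusted p = 0.0046) and AT5G17340 by 2.96 (limma adjusted p = 0.0018), while AT2G39725 differed by 0.34 (limma adjusted p = 0.36). The nearest pattern to that of SWEET10 was EXO, a cell expansion gene (r = 0.982). For SWEET16 it was AT2G45180 (r = 0.993), for SWEET13 AT2G07720 (r = 0.998), for SWEET17 AT5G15560 (r = 0.994) and for SWEET9 AT2G25200 (r = 0.996), none of which passed the test between the groups. With 6 arrays a high r is common, and 125 probe sets reached 0.95 for SWEET9.

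No SWEET of clades I and II passed either. SWEET1 to SWEET8 each had a probe set. SWEET7, with signals of 11.8 to 25.8, was under the limit of testing. The other 7 were tested, and 0 were called by limma or had an unadjusted p under 0.05. Their median log2 difference was 0.13. SWEET1, a plasma membrane glucose carrier, had signals of 128, 109 and 149.7 in wild type and 156, 149.5 and 134 in pho1, which overlapped, and it differed by 0.18 (limma adjusted p = 0.71). SWEET4, a glucose and fructose carrier, differed by -0.21, SWEET6 by 0.22, SWEET5 (AtVEX1, a pollen gene) by 0.15, SWEET3 by 0.13, and SWEET8 (RPG1, needed for pollen wall formation) by -0.12. Signals of SWEET5, 13.8 to 21.6, and of SWEET8, 14.9 to 29.1, lay near the limit of testing, a signal of 17.4, and do not show expression. SWEET2, a vacuolar glucose carrier, differed by 0.02, and its sign turned with quantile normalization (-0.02) and median centring (-0.06).

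Other genes of sugar transport and sucrose metabolism did not pass the test in the main analysis. With clades I and II, 7 lists held 87 entries, of which 27 had a listed probe set and 23 were tested. Limma called 0 higher and 0 lower, beside 2.96% of all tested probe sets in either direction. An unadjusted p under 0.05 was found for 3 of the 23, beside 15.1% of all tested probe sets. The median log2 difference of the 23 was -0.05. In replicates 2 and 3 alone, 1 was called higher and 3 lower, beside 9.54% and 9.2% of all tested probe sets. With array weights over all 6 arrays 5 were called, beside 23.8% of all tested probe sets, and with the spike-in block 1, beside 8.28%. No sucrose-proton symporter had a listed probe set, so SUC2, the step after SWEET11, is not analysed here.

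Of 6 tested vacuolar transporters outside the SWEET family, 0 passed and 5 had an estimate below 0 in the main analysis, as did 53.0% of all tested probe sets. With quantile normalization or median centring all 6 were below 0. There the median over all tested probe sets was also lower, at -0.06 and -0.09, beside -0.02 in the main analysis. The main estimates of the 6 ran from -0.64 to 0.01, with a median of -0.21, while SWEET16 and SWEET17 had estimates above 0. That of SWEET17 turned sign when some single arrays were left out (-0.11 to 0.31), and that of SWEET2 turned sign with the scaling. TMT2, which moves sugar into the vacuole, had means of 190 ± 89.3 in wild type and 116 ± 41.4 in pho1 (SD, n = 3 each), which differed by -0.64 on the log2 scale (limma adjusted p = 0.45), and by -0.29 without wild type replicate 1 and -0.37 without pho1 replicate 3. Its relative TMT1 differed by -0.49, and by -0.78 without wild type replicate 1 and -0.30 without wild type replicate 2. Both plastid loci tested were lower in estimate, AT5G17630 by -0.66 and AT5G59250 by -0.50. They missed the threshold in the main analysis (limma adjusted p = 0.26 and 0.31) and passed in replicates 2 and 3 (0.0071 and 0.026) and with array weights (0.0051 and 0.018). AT5G17630 also passed without wild type replicate 1 (0.041), and AT5G59250 was at -0.32 without pho1 replicate 3. By replicate pair AT5G17630 differed by 0.03, -0.80 and -1.20, so pair 1 showed no fall.

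Among 2 tested loci of the sucrose synthesis list, AT2G35840 had all 3 pho1 arrays below the wild-type arrays. Groups without overlap, in either direction, were found in 19.8% of tested probe sets. The means of AT2G35840 were 236 ± 26.0 in wild type and 144 ± 19.5 in pho1 (SD, n = 3 each). Its log2 difference was -0.68 ± 0.17 (SE; limma adjusted p = 0.094). It passed in replicates 2 and 3 (limma adjusted p = 0.045), with the spike-in block (0.034) and with array weights (0.010). ATSPS4F, a sucrose-phosphate synthase, was at 0.16 in the main analysis and -0.35 in replicates 2 and 3, with no call in either. In the sucrose cleavage list AT1G62660 differed by -0.51 and cwINV6 by 0.03, the latter turning to -0.05 with quantile normalization and -0.04 with median centring. Of 4 plasma membrane loci tested, AT2G20780 differed by 0.71 (limma adjusted p = 0.33) and passed in replicates 2 and 3 (0.029), with array weights (0.014) and without pho1 replicate 1 (0.048). AT5G61520 differed by 0.46 (limma adjusted p = 0.34) and passed with array weights (0.029). Loci given by number carry no symbol in the gene annotation used, and they were placed in these lists from general knowledge. The lists name them SPP2 (AT2G35840), XPT (AT5G17630), VGT3 (AT5G59250), BFRUCT3 (AT1G62660), PLT4 (AT2G20780) and STP3 (AT5G61520).

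**Figure D5:**
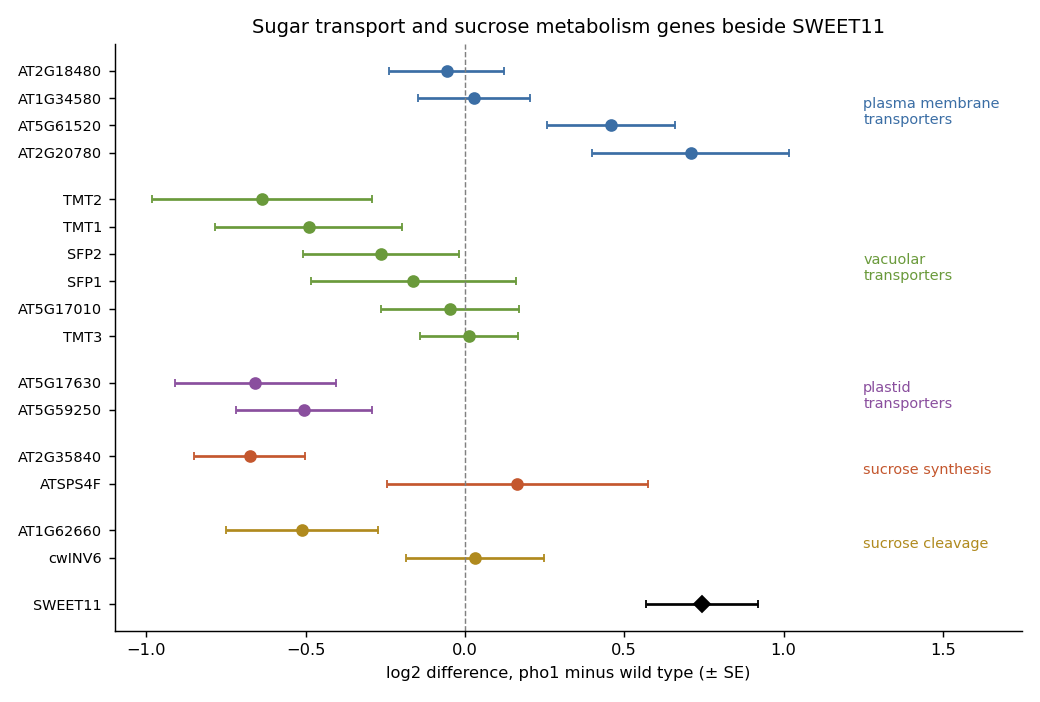
Log2 difference, pho1 minus wild type (x axis, point with SE), of 16 tested sugar transport and sucrose metabolism genes in 5 lists, with SWEET11 as the black diamond. SWEET11 is at 0.74, and the lowest of the others, AT2G35840, at -0.68; none passed in the main analysis, which is the one plotted.

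Only 1 of 9 senescence genes had a listed probe set. SAG101, a defence and senescence gene, had means of 21.3 ± 6.49 in wild type and 39.2 ± 6.07 in pho1 (SD, n = 3 each). Its groups did not overlap, as held for 19.8% of tested probe sets in either direction. The wild-type signals of 24.5, 13.8 and 25.5 lay near the limit of testing, a signal of 17.4, and no detection calls were used. The log2 difference of SAG101 was 0.67 (limma adjusted p = 0.17), and it passed in replicates 2 and 3 (limma adjusted p = 0.038) and with array weights (0.0079).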

How the data were processed

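Per the submitters' processing notes, the deposited values are MAS5 signals, a linear intensity per probe set. No MAS5 version was stated. The table had 6 columns and none of other samples. Array trimmed means (2% off each end) averaged 100.01 as deposited. Arrays were scaled to that mean, 10% of it was added to each signal, and log2 was taken, so differences of dim probe sets are understated. The 64 control probe sets were left out, as were those whose mean log2 value fell under the 30th percentile. The groups were compared over the remaining 15922 by limma 3.58.1, run in R 4.3.3 (intensity trend, two-sided, no block, Benjamini-Hochberg, threshold 0.05). On simulated arrays with independent noise, 3 against 3, this fit found 1.2% of log2 changes of 0.5. It found 36% of changes of 1 and 82% of changes of 2. The simulation held no shift of replicate 1.

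Probe sets with 1 gene numbered 13513, and 8730 had no gene listed. Symbols were updated through the RefSeq table of TAIR10.1. Same-numbered arrays deviated from their group means together (r = 0.42, 0.217 and 0.386, all over 0.1), so the numbers were taken to pair the arrays; the labels do not state it. Wild type replicate 3 and pho1 replicate 2 also did so (r = 0.33), and the other 5 differently numbered pairs had r from -0.475 to 0.022. The members and lists were chosen with earlier results of these data known. Genes named are all SWEETs, up to 4 called members of a list or else its 2 with the smallest p, and patterns most like each tested member. Of these patterns 3 are named for SWEET11 and 1 for each other tested member. Where a locus had several probe sets the brightest was used. Alternatives changed the scaling, offset, filter, variance model or block, used replicates 2 and 3 alone, left out each array, or replaced the test by exact permutation (scipy 1.17.1). The planned motif search in promoters was not run, and PHO1 and SWEET12 are not analysed here.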

Additional observations from a re-analysis of the deposited data

How the results depend on the processing

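SWEET11 lay above 0 in every one of its 19 alternatives, between 0.60 and 0.82. It passed in 5 of them: quantile normalization (0.81), array weights (0.60), the replicate block (0.74), a block for the spike-in sets (0.74) and replicates 2 and 3 on their own (0.64). In these the count of called members was 1 in place of 0. Leaving out 1 array gave 0.69 to 0.82 and no pass, with adjusted p from 0.064 to 0.31. The count of called probe sets, 472 in the main analysis, was 289 with no filter, 3789 with array weights, 1057 with the replicate block, 1319 with the spike-in block, 2984 in replicates 2 and 3, and 165 to 1050 with 1 array left out. Sugar list members called, 0 in the main analysis, were 5 with array weights, 1 with the spike-in block, 4 in replicates 2 and 3, and 0 to 1 with 1 array left out. The replicate block changed no other call among the members, the sugar lists and SAG101. With 1 array left out, signs turned for SWEET9 (-0.33 to 0.087), SWEET13 (-0.088 to 0.32), SWEET17 (-0.11 to 0.31), SWEET2 (-0.24 to 0.22), SWEET4 (-0.38 to 0.0034), SWEET8 (-0.30 to 0.026), ATSPS4F (-0.35 to 0.55) and cwINV6 (-0.13 to 0.17). Signs held for SWEET10 (0.11 to 0.26), SWEET16 (0.095 to 0.37), TMT1 (-0.78 to -0.30) and TMT2 (-0.87 to -0.29) while their size moved by over 1.5 times. The same was true of SWEET1 (0.07 to 0.285), SWEET3 (0.05 to 0.24), SWEET5 (0.08 to 0.27) and SWEET6 (0.11 to 0.38). It was also true of AT2G20780 (0.47 to 1.04), AT1G62660 (-0.70 to -0.32) and AT5G59250 (-0.69 to -0.32). Other reversals were those of SWEET2 under quantile normalization (-0.017), median centring (-0.055), array weights (-0.043) and replicates 2 and 3 (-0.032), of ATSPS4F under array weights (-0.41) and replicates 2 and 3 (-0.35), and of cwINV6 under quantile normalization (-0.052) and median centring (-0.039). The cause of these changes was not tested. SWEET5, SWEET8, SWEET9 and SWEET10 lay near the limit of testing, and SWEET7 and SWEET14 under it. At such signals the added offset understates differences.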
